A study of Homo sapiens with 4 samples.

Results

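Peaks of the transcription factor TEAD4 on human chromosome 20 were examined in MKN28 and SNU216, 2 lines of gastric cancer cells. The peaks came from chromatin immunoprecipitation followed by sequencing (ChIP-seq), in which DNA bound by a protein is pulled down with an antibody and sequenced. Each line had 1 TEAD4 library, and the authors deposited 1 list of peaks for each. A peak belonged to the set when it lay on chromosome 20 with a midpoint outside 48500000 to 50200000 on the hg19 build. This gave 1672 peaks of 51017 in all, 1183 of 39477 in MKN28 and 489 of 11540 in SNU216. Chromosome 20 was chosen from values measured in these same lists, since the number and the width of its SNU216 peaks were known to stand apart. Those values are therefore given as a description. The labels name no genotype or treatment for either line, and each line also had 1 input library without antibody, which is not analysed here. MKN28 is listed in registers of misidentified lines as a derivative of MKN74, another gastric cancer line. With 1 library a line, no value has a replicate check. The 95% intervals below cover counting error alone, and they are too narrow where neighbouring peaks depend on each other.

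TEAD4 is a transcription factor that binds DNA through its TEA domain and depends on the co-activators YAP and TAZ to switch on genes. The Hippo kinases MST1 and LATS hold YAP and TAZ in the cytoplasm, and loss of this restraint is a common feature of gastric tumours. MST1 is itself encoded on chromosome 20 by STK4, in band 20q13.12. The long arm of chromosome 20 is often gained in gastric and colorectal cancers. It carries the survival gene BCL2L1 in 20q11.21, the kinase gene SRC in 20q11.23, the gut regulator HNF4A in 20q13.12 and the mitotic kinase gene AURKA in 20q13.2. Genes are named here as background on a band and are not assignments of a peak. DNA copy number was not measured in these files.

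SNU216 held more of its TEAD4 peaks on chromosome 20 than its shorter list would give. SNU216 peaks made up 29.2% of the peaks of both lists there (27.1 to 31.5), against 22.4% (22.02 to 22.8) on the other chromosomes. The MKN28 list was thus 2.42 times as long on chromosome 20 and 3.47 times as long elsewhere. Among peaks that scored 100 or more, the SNU216 share was 23.8% on chromosome 20 and 19.7% elsewhere. The score is the peak caller's own measure of strength. It depends on sequencing depth, which is unknown here, so scores were otherwise ranked within a list. A limit of 100 in both lists need not mark peaks of like strength. Part of the excess of SNU216 peaks lay at low scores. When the whole SNU216 list was cut by score into 5 equal groups, the lowest (50.01 to 58.2) took 27.0% of its chromosome 20 peaks and 19.7% of the others. The highest group took 20.9% and 19.9%. In MKN28 each group took from 19.02% to 21.1% of the chromosome 20 peaks. The median score was 74.99 in SNU216 (70.2 to 78.5), the lowest of the 23 chromosomes compared, against 85.6 on the other chromosomes. In MKN28 the medians were 97.4 (93.4 to 104.7) and 99.8, which lies within that interval.

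Chromosome 20 peaks were wide in both lists, and more so in SNU216. The median width in SNU216 was 516 bp (495 to 531), against 403 bp on the other chromosomes. In MKN28 it was 574 bp (560 to 589) against 524 bp. Both were the highest medians of the 23 chromosomes. The next in SNU216 was 441 bp on chromosome 8. In MKN28 it was 573 bp on chromosome 15, inside the interval of chromosome 20. Strong peaks are wider, so each list was cut by score into 50 groups, and every width was set against the median of its group. By this ratio, called width for score, SNU216 peaks of chromosome 20 were 1.24 times as wide as peaks of like score (1.21 to 1.29). The other 22 chromosomes ranged from 0.93 on chromosome 12 to 1.09 on chromosome 8. In MKN28 the ratio was 1.098 (1.08 to 1.12), and chromosome 15, also at 1.098, was the highest. Chromosomes 14 and 3 had SNU216 shares as large as chromosome 20, at 30.7% and 30.4%. Their SNU216 peaks were 1.003 and 1.004 times as wide as peaks of like score. The pairing of a large share with wide peaks was thus seen on chromosome 20 and on neither of those. A weaker pairing was seen on chromosome 8, with a share of 26.02% (24.3 to 27.8) and a ratio of 1.09 (1.06 to 1.11). It was also seen on chromosome 11, at 25.05% (23.5 to 26.6) and 1.05 (1.03 to 1.08). Chromosomes 6, 7 and 18 had shares of 25.8%, 24.6% and 26.3%, with ratios of 0.98, 1.0 and 0.96.

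**Figure D1:**
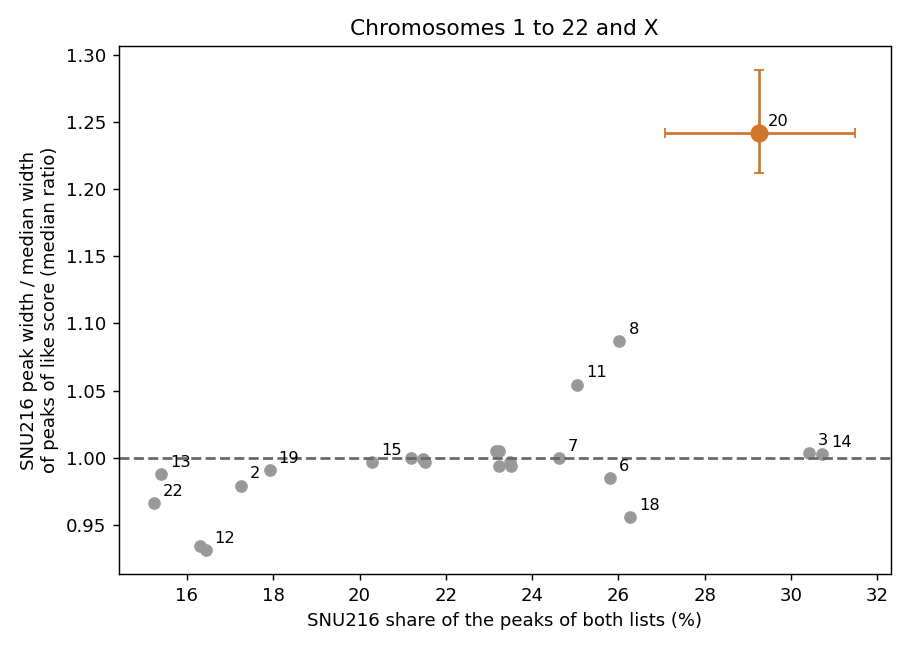
Each point is 1 of 23 chromosomes, with the SNU216 share of the peaks of both lists (%) on the x axis and the median width of its SNU216 peaks relative to like-score peaks on the y axis. The bars on chromosome 20 are 95% intervals. Chromosome 20 sits alone at 1.24, while chromosomes 3 and 14 have similar shares at 1.004 and 1.003. Labels of the crowded points near the middle are left out.

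The greater width was present at every level of score in SNU216. In the lowest of the 5 groups, chromosome 20 peaks had a median of 411 bp (384 to 453) against 328 bp elsewhere. In the next group the medians were 469 and 348 bp, a ratio of 1.35. In the highest they were 659 bp (623 to 700) and 562 bp, a ratio of 1.17. The MKN28 ratios of the 5 groups ran from 1.05 in the highest group to 1.16 in the middle one. Peaks of 1 kb or wider made up 3.48% of the SNU216 peaks of chromosome 20 (17 peaks, 2.04 to 5.51), with 1.40% in the whole list. In MKN28 the share was 5.41% (64 peaks, 4.19 to 6.86), with 4.05% in the whole list. Chromosome 21 had a higher share in SNU216, 6.06%. In MKN28 chromosome 20 had rank 5 of 23, and chromosome 22 was highest at 10.2%. Such peaks were few in both lists. The quartiles of SNU216 width were 416 and 627 bp on chromosome 20 and 331 and 506 bp elsewhere, so peaks of ordinary size were wider as well.

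**Figure D2:**
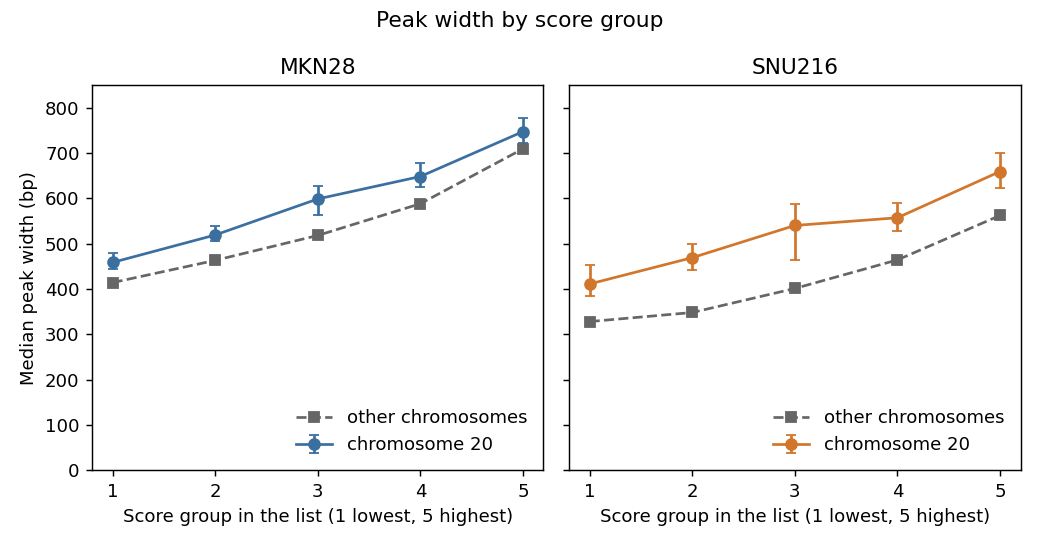
Median peak width in bp (y axis) in 5 equal groups of each list by score (x axis, 1 lowest and 5 highest), for chromosome 20 (solid, with 95% intervals) and the other chromosomes (dashed). In SNU216 the chromosome 20 medians, 411 to 659 bp, lie above the others in all 5 groups, and in MKN28 the gap is smaller.

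The long arm was the denser arm in both lines. Outside the centromere bands, MKN28 had 17.9 peaks per Mb on the p arm and 22.2 on the q arm. SNU216 had 6.84 and 9.62. The q arm thus held 60.02% of the MKN28 peaks (57.2 to 62.8) and 62.8% of the SNU216 peaks (58.3 to 67.1), shares whose intervals overlap. The SNU216 share of both lists was 27.8% on the p arm (24.4 to 31.4) and 30.2% on the q arm (27.4 to 33.1). Widths relative to like-score peaks were also close, at 1.25 on the p arm and 1.24 on the q arm in SNU216, and at 1.11 and 1.09 in MKN28. SNU216 scores were lower on the p arm, with a median of 65.7 (62.3 to 74.99) against 78.2 (73.3 to 87.9), and these intervals overlap. MKN28 medians were 95.9 and 101.9. Of the 10 highest-scoring peaks, 7 in MKN28 and 9 in SNU216 lay on the q arm, which held 60.02% and 62.8% of all members in the lists. These counts are too small to set the strongest peaks apart.

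With score not held, the arms differed in the share of peaks called in both lines. An overlap meant at least 1 shared bp. On the p arm 72 of 182 SNU216 peaks overlapped an MKN28 peak (39.6%, 32.4 to 47.1), and on the q arm 170 of 307 did (55.4%, 49.6 to 61.02). The share over the whole SNU216 list was 59.3%. In the other direction 72 of 473 MKN28 peaks on the p arm overlapped an SNU216 peak (15.2%, 12.1 to 18.8) and 169 of 710 on the q arm (23.8%, 20.7 to 27.1), with 17.1% in the whole MKN28 list. The intervals of the arms did not meet in either direction. Both directions count the same overlaps from the side of each list, so they are not separate results. At a score of at least 100 the SNU216 shares were 60.7% (46.8 to 73.5) and 70.4% (61.6 to 78.2), and there the intervals overlapped. They also overlapped when the MKN28 list was cut to the SNU216 length, with shares of 22.5% (16.7 to 29.3) and 33.2% (27.98 to 38.8).

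Since overlap rises with score, the rates of peaks on the other chromosomes, in 10 groups by score, were applied to the scores of the chromosome 20 peaks. For the SNU216 p arm this gave 52.3%, above the interval of the observed 39.6%. For the q arm it gave 59.01%, inside the interval of the observed 55.4%. For MKN28 it gave 15.8% on the p arm, near the observed 15.2%, and 17.5% on the q arm, below the interval of the observed 23.8%. The observed share thus fell short of the like-score rate for SNU216 peaks of the p arm and exceeded it for MKN28 peaks of the q arm. Both shares also depend on the numbers of peaks in the lists, which entered the choice of chromosome 20. Groups by score do not hold those numbers. Over the 13 blocks of 5 Mb, the SNU216 share of peaks and the SNU216 overlap had a Spearman rho of -0.62. Over the whole chromosome 242 of 489 SNU216 peaks overlapped (49.5%, 44.97 to 54.01), against 59.6% on the other chromosomes and 56.5% at like score. In MKN28 241 of 1183 did (20.4%, 18.1 to 22.8), against 16.97% and 16.8%. Low SNU216 overlap with high MKN28 overlap was also seen on chromosomes 14 and 3, which had SNU216 shares as large. There 47.97% and 53.9% of SNU216 peaks overlapped, and 21.1% and 22.98% of MKN28 peaks did. The pattern was thus not particular to chromosome 20. A like-score rate was not computed for either of those chromosomes. By score on chromosome 20, the rate elsewhere lay above the SNU216 interval in the lower 2 of the 5 groups and inside it in the other 3. In the lowest group 18.9% overlapped (12.6 to 26.7) against 30.8% elsewhere, and in the second 33.01% (24.1 to 42.97) against 44.5%. In the highest group 87.3% (79.2 to 93.04) and 86.6% overlapped.

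**Figure D3:**
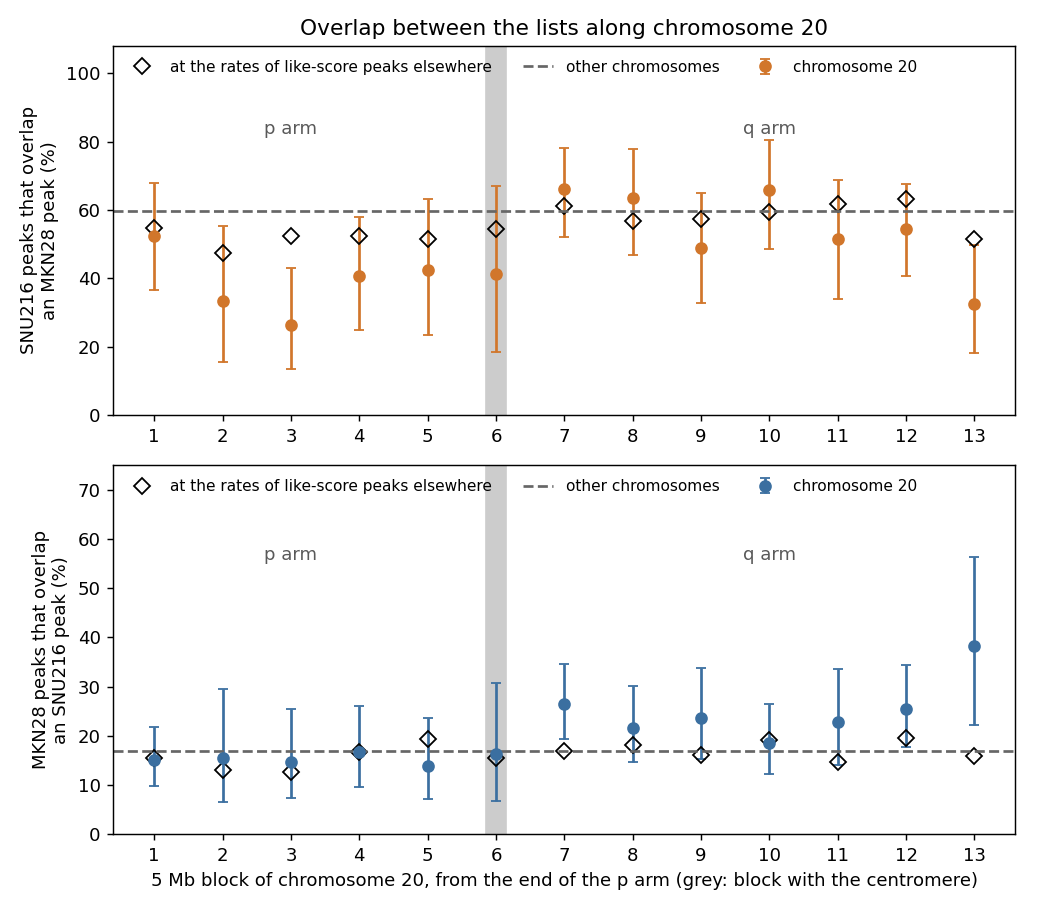
Share of SNU216 peaks that overlap an MKN28 peak (upper panel, %) and of MKN28 peaks that overlap an SNU216 peak (lower panel, %) in the 13 blocks of 5 Mb from the end of the p arm, with 95% intervals. Dashed lines are the other chromosomes, and diamonds are the share at the rates of like-score peaks there. SNU216 shares run from 26.3% in the third block to 66.1% in the seventh.

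Along the chromosome, blocks with many peaks in 1 list tended to have many in the other. Over the 13 blocks of 5 Mb, the numbers of peaks in the 2 lists had a Spearman rho of 0.76 and a Pearson r of 0.69. The last block is shorter, the block of the centromere has a gap, and the tenth and eleventh lack the part left out, which both lists share. MKN28 numbers ran from 34 peaks (60 to 63.03 Mb) to 153 (0 to 5 Mb), and SNU216 numbers from 17 (25 to 30 Mb) to 57 (55 to 60 Mb). The SNU216 share lay above the 22.6% of all chromosomes in 12 of the 13 blocks, and below it at 21.5% in the block from 0 to 5 Mb. Its interval lay wholly above that level in 5 blocks, where over all chromosomes 12.4% of 518 blocks did, and below it in 0 blocks, where over all chromosomes 13.5% did. The 5 were 5 to 10 Mb (34.8%), 10 to 15 Mb (35.8%), 40 to 45 Mb (31.5%), 55 to 60 Mb (33.3%) and 60 to 63.03 Mb (52.1%). At a score of at least 100 the count fell to 2 of 11 blocks. Blocks then hold fewer peaks and have wider intervals, and the share of such blocks over all chromosomes was not computed at that limit. These shares are from the contrast that led to the choice of chromosome 20.

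**Figure D4:**
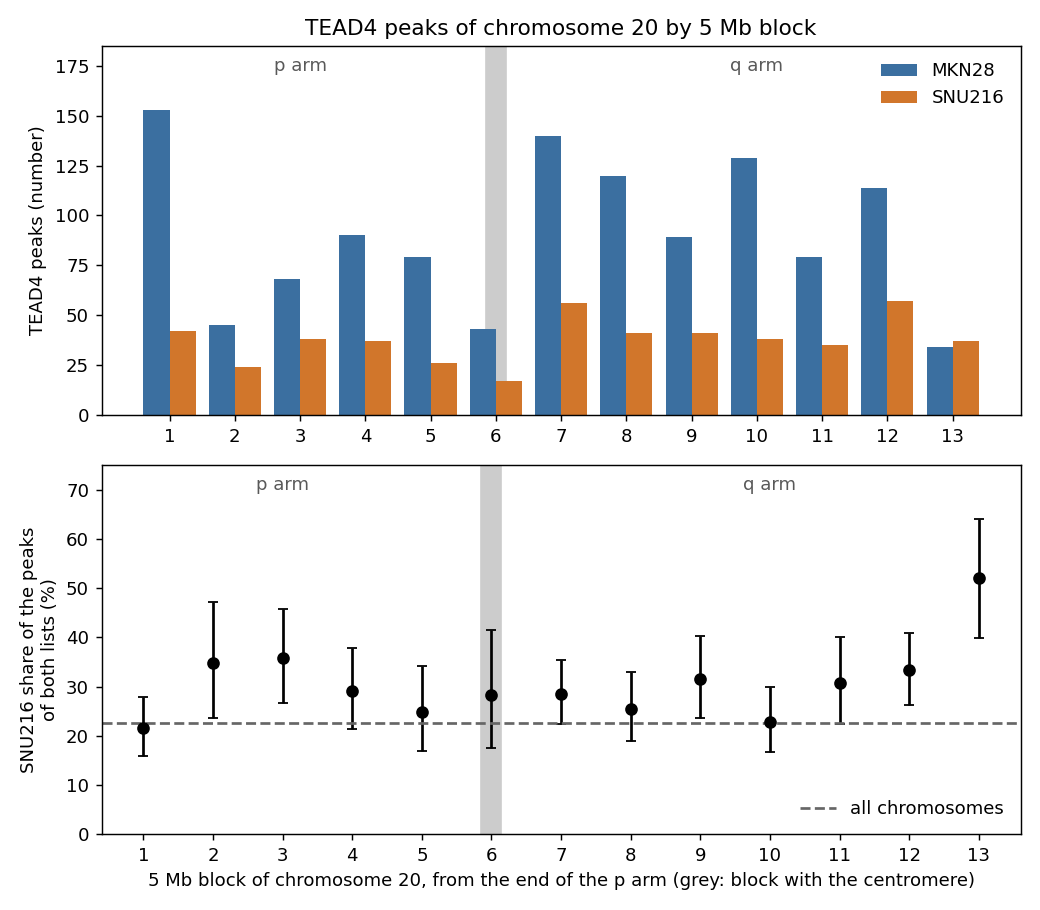
Number of TEAD4 peaks in each list (upper panel) and SNU216 share of the peaks of both lists with 95% intervals (lower panel, %) in the 13 blocks of 5 Mb from the end of the p arm. The dashed line is the 22.6% of all chromosomes. MKN28 outnumbers SNU216 in every block but the last, where they have 34 and 37 peaks.

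Wide SNU216 peaks were present along nearly the whole chromosome. The block medians of width relative to like-score peaks ran from 1.02 (20 to 25 Mb) to 1.47 (15 to 20 Mb), and all 13 were above 1. The interval held 1 in the block from 20 to 25 Mb alone (0.92 to 1.14, 26 peaks). On the next block towards the end of the p arm, from 15 to 20 Mb, it was 1.20 to 1.59 (37 peaks), so the neighbours did not overlap. MKN28 medians were above 1 in 12 of 13 blocks and highest at 1.22 (1.06 to 1.35) in the block of the centromere. The exception was the end of the q arm, where MKN28 peaks were 0.84 times as wide as peaks of like score (0.72 to 0.97). Among the 12, the MKN28 interval held 1 in the blocks from 5 to 10, 10 to 15, 20 to 25 and 35 to 40 Mb.

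**Figure D5:**
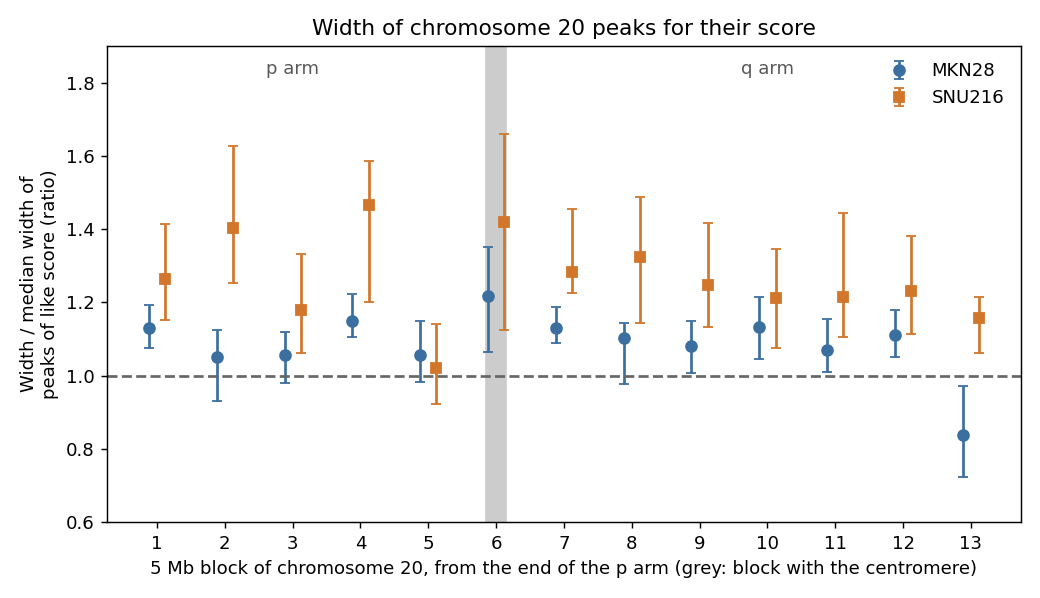
Median width of peaks divided by the median width of like-score peaks of the same list (y axis, ratio) in the 13 blocks of 5 Mb from the end of the p arm, with 95% intervals. SNU216 medians lie between 1.02 and 1.47 and exceed those of MKN28 in 12 of the 13 blocks, the exception being the fifth.

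At sites called in both lines, SNU216 peaks came closer to the width of their MKN28 partners than they did elsewhere. The 242 overlapping SNU216 peaks had a median of 0.87 times the width of the highest-scoring MKN28 peak they overlapped (0.80 to 0.92). On the other chromosomes the ratio was 0.72 (0.71 to 0.73) over 6571 pairs. Chromosome 20 was chosen with its wide SNU216 peaks known, so a higher ratio here follows from that choice and is no separate result. The SNU216 peak was the wider of the pair in 83 cases on chromosome 20 (34.3%, 28.3 to 40.6) and in 16.9% elsewhere. Ratios were 0.85 (0.77 to 0.91) on the p arm and 0.89 (0.80 to 0.97) on the q arm. Midpoints of partners lay a median of 59 bp apart, against 55 bp elsewhere. Scores of partners had a Spearman rho of 0.42 across the 242 pairs and 0.38 elsewhere. Pairs along 1 chromosome are not independent.

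Sites called in both lines were the stronger ones within each list, as on other chromosomes. In SNU216 the median score was 129 for overlapping peaks (107 to 149) and 61.0 for the rest (58.3 to 63.3). In MKN28 the medians were 220 (175 to 245) and 87.1 (81.3 to 90.8). SNU216 peaks were 1.26 times as wide as like-score peaks when they overlapped and 1.23 times when they did not. SNU216 peaks with no overlap lay a median of 19.004 kb from the nearest MKN28 midpoint, against 20.3 kb on the other chromosomes. Of these 247 peaks 46 lay within 5 kb (18.6%), against 21.6% elsewhere. MKN28 peaks with no overlap lay a median of 44.0 kb from the nearest SNU216 midpoint, against 77.6 kb elsewhere. The SNU216 list is the shorter one, which by itself makes that distance longer.

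The strongest SNU216 site of chromosome 20 was at the end of the long arm, in 20q13.33. It lay at chr20:60936178-60937760, scored 2686 and had rank 3 in the whole SNU216 list. It was 1583 bp wide, or 2.37 times the width of like-score peaks. Its MKN28 partner at chr20:60936689-60937270 was 582 bp wide, scored 1163 and ranked 564 in its own list. The second strongest SNU216 site was in the same band at chr20:60924902-60925611, with a score of 1559 and rank 21, and its MKN28 partner scored 128. Band 20q13.33 carries LAMA5, which encodes a laminin chain of epithelial basement membranes. Both sites were thus called in MKN28 too, at a lower place in its longer list.

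A few overlapping sites were in the top 10 of chromosome 20 in each list. The first, in 20p11.23, was at chr20:19973374-19974493 in SNU216 (score 1081, rank 56) and at chr20:19973502-19974403 in MKN28 (score 2004). The second, in 20q13.12, was at chr20:43641277-43641962 in SNU216 (score 1033) and scored 1591 in MKN28. The third, in 20q11.23, was at chr20:36745826-36746565 in SNU216 (score 1007) and scored 1477 in MKN28. Band 20q11.23 also carries TGM2, the gene of a transglutaminase that cross-links proteins. Another 20q11.23 site, at chr20:36796202-36796947, scored 1010 in SNU216 and 284 in MKN28, where it ranked 6631. The pair of sites in 20q13.12 at chr20:43966195-43966867 and chr20:43987689-43988955 scored 869 and 1077 in SNU216. Their MKN28 partners scored 1100 and 1352. That band holds SDC4, the gene of the cell-surface proteoglycan syndecan-4, beside STK4 and HNF4A. The remaining named SNU216 sites were in 20q13.31 (chr20:56267819-56268694, score 1038, MKN28 score 816) and 20q13.12 (chr20:46081723-46082608, score 903, MKN28 score 1340).

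The strongest MKN28 site of the chromosome was in 20q11.21, the band of BCL2L1 and of ID1, an inhibitor of cell differentiation. It lay at chr20:30307073-30308506, scored 2522 and ranked 39 in the MKN28 list, and its SNU216 partner scored 697. A second MKN28 site of that band, at chr20:30266051-30267063, scored 1724, and its SNU216 partner scored 76.1. The site next in strength on the chromosome was on the p arm in 20p11.22, at chr20:21706388-21707154, with scores of 2471 in MKN28 and 783 in SNU216. In 20p11.23 a peak at chr20:18125090-18125995 scored 1877 in MKN28 and 172 in SNU216. Partners in 20q11.22 (chr20:32377228-32378102) scored 1729 and 508, and in 20q11.23 (chr20:36812233-36813139) they scored 1723 and 368. In 20q13.12, the MKN28 peak at chr20:46069513-46070467 scored 1409 and its partner 237. Scores of different lists are set side by side here only to show the place of a site in each list.

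High-scoring MKN28 sites without a partner in SNU216 were also found. The first was in 20q13.2 at chr20:51962089-51963966, with a score of 2038, rank 96 and the greatest width of any member in MKN28, 1878 bp. Band 20q13.2 holds ZNF217, a transcription factor gene gained in several carcinomas, beside AURKA. The others were in 20q13.13 (chr20:47154813-47156013, score 1447), 20q12 (chr20:39078504-39079211, score 1242, and chr20:40020090-40020952, score 933) and 20q11.23 (chr20:35907533-35908482, score 1173). All 5 were on the q arm, which held 541 of the 942 MKN28 peaks with no partner. It also held 16 of the 20 highest-scoring MKN28 peaks, and 5 peaks are too few to set the arm apart. The strongest SNU216 peaks with no MKN28 peak ranked from 606 to 1683 in their list. They were in 20p12.2 (chr20:10287613-10288227, score 438), which is the band of the Notch ligand gene JAG1, in 20q11.22 (chr20:33907722-33908751, score 378, and chr20:33900062-33900688, score 275), in 20q13.12 (chr20:43299483-43300027, score 334) and in 20q13.33 (chr20:60925709-60926327, score 239). A list leaves out all sites under the authors' threshold, so an unlisted site may still bind TEAD4. All 20 of the highest-scoring SNU216 peaks on the chromosome had an MKN28 partner, and among the 20 highest-scoring MKN28 peaks 16 overlapped an SNU216 peak. The MKN28 list is the longer one, so these counts are not comparable. Over the whole lists 59.3% of SNU216 and 17.1% of MKN28 peaks overlapped. In the highest of 5 score groups on the other chromosomes 86.6% and 40.02% did. A rate elsewhere for peaks as strong as these 20 was not computed.

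At the end of the long arm the lists were nearly equal in number. From 60 to 63.03 Mb SNU216 had 37 peaks and MKN28 34, and across the whole of 20q13.33 they had 49 and 48. SNU216 had 10.6 peaks per Mb in that band, near its 9.62 for the arm, while MKN28 had 10.4 against 22.2. In the block, 12 of 37 SNU216 peaks had an MKN28 partner (32.4%, 18.01 to 49.8), where like-score peaks elsewhere gave 51.4%. That shortfall was not particular to the end of the arm, since 26.3% overlapped from 10 to 15 Mb (13.4 to 43.1), where like-score peaks gave 52.4%. Of the 34 MKN28 peaks 13 overlapped (38.2%, 22.2 to 56.4), where like-score peaks gave 15.9%. Both shares depend on the numbers of peaks in the lists, which the like-score rates do not hold. The median width was 436 bp in MKN28 (371 to 512) and 439 bp in SNU216 (369 to 523). It was the block with the narrowest MKN28 peaks.

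Light bands of stained chromosomes are known to be richer in genes than dark ones. The dark bands were pooled here over their grades of stain. On the p arm MKN28 had 23.5 peaks per Mb in the light bands and 10.3 in the dark bands, and SNU216 had 8.10 and 5.14. On the q arm the densities were close, at 23.3 and 21.3 in MKN28 and at 10.5 and 8.91 in SNU216. The arms differ in the grades of their dark bands, so the pooled densities do not compare like with like. In the darkest grade present, MKN28 had 9.02 and 12.1 peaks per Mb in 20p12.3 and 20p12.1, and 11.7 and 16.5 in 20q12 and 20q13.2. In the palest grade it had 31.7 in 20q11.22 and 31.9 in 20q13.12, but 5.0 in 20p11.22, which is 1.0 Mb long. The densest band in both lists was the light band 20q13.31, which carries BMP7, a growth factor gene, with 66 MKN28 and 30 SNU216 peaks in 1.5 Mb. The band 20q13.12, of the palest dark grade, had 31.9 MKN28 and 14.2 SNU216 peaks per Mb. The band 20q12, of the darkest grade present, had 11.7 and 3.90. SNU216 peaks overlapped MKN28 peaks in 72.0% of 25 cases in 20q11.21 and in 28.0% of 25 cases in 20p12.2. These were the highest and lowest shares of any band with SNU216 peaks, and both rest on few peaks. The share was 49.5% over the chromosome and 59.3% over the whole SNU216 list. Of the 2 centromere bands, 20p11.1 held 15 MKN28 and 7 SNU216 peaks and 20q11.1 held 0 in both lists. The peaks next to the arm boundary were at chr20:26249181-26250177 and chr20:29447027-29447736 in MKN28, with scores of 98.1 and 60.4. In SNU216 they were at chr20:26189730-26190342 and chr20:29446916-29447711, with scores of 78.1 and 50.3.

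The part left out of the set, 48.5 to 50.2 Mb, held 102 MKN28 and 33 SNU216 peaks. At its lower edge the last MKN28 peak kept was at chr20:48488525-48489147 (score 198) and the first one left out at chr20:48517194-48517797 (score 79.4). In SNU216 these were at chr20:48385118-48385586 (72.2) and chr20:48504834-48505228 (58.6). At the upper edge the last peak left out was at chr20:50149899-50150790 in MKN28 (score 179) and at chr20:50149762-50150319 in SNU216 (74.2). The first peaks kept after it were at chr20:50202421-50202981 in MKN28 (72.4) and chr20:50368734-50369486 in SNU216 (61.2).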

How the data were processed

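ChIP-seq with a TEAD4 antibody was done in MKN28 and SNU216, with 1 TEAD4 and 1 input library each. Per the submitters' processing notes, CASAVA 1.8, Bowtie2 2.0.0 and MACS were used on hg19. The version of MACS, its settings and the treatment of duplicate reads are not given in those notes. The deposited lists give a position and a score per peak as the authors' caller wrote it, with no read counts, so depth is unknown. Both lists start at a score of about 50. Positions are printed 1-based. Bands and the arm boundary at 27.5 Mb came from the hg19 table of circlize 0.4.16. The gene positions at hand are on another build, so no peak was tied to a gene and the gene lists that had been planned were not counted.

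All values were computed over both whole lists and printed for chromosome 20. Shares carry exact Clopper-Pearson intervals and medians exact binomial order-statistic intervals, both at 95%. Blocks of 5 Mb needed at least 30 peaks. Width for score used 50 groups by score rank. Named peaks are the 10 highest-scoring overlapping and 5 highest-scoring other peaks of each list, plus those at the arm boundary and at the edges of the part left out. The code was tested on simulated data. Members and comparisons were chosen with earlier results of these data known, and no p-value is given. Python 3.11.15, numpy 2.4.6, pandas 2.3.3, scipy 1.17.1 and matplotlib 3.10.9 were used.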

Additional observations from a re-analysis of the deposited data

How the results depend on the processing

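No paired analysis was possible because the labels hold no replicate numbers and a line has 1 library, and no library could be left out. Of 69 values recomputed for 14 results, 41 stayed within the main interval or within 1.5 times the main count, among them every value with the left-out part kept and every value without peaks beside centromeres. Among peaks that scored 100 or more, the SNU216 share was 23.8% on the chromosome (19.7% elsewhere). It was 20.1% on the p arm and 25.9% on the q arm. At this limit 2 of 11 blocks were above the genome, with no share over all chromosomes computed. Overlap of SNU216 peaks was then 67.4% (68.7% elsewhere), 60.7% on the p arm and 70.4% on the q arm, so the rate elsewhere lay inside its interval (60.1 to 74.2). Medians were 201 (MKN28) and 217 (SNU216) for score, 679 and 621 bp for width, and 1.20 for SNU216 width for score. With the MKN28 list cut to the SNU216 length, the SNU216 shares were 59.1% (49.7% elsewhere), 60.3% on the p arm and 58.5% on the q arm. Overlap was 29.2% of SNU216 peaks (36.3% elsewhere), 22.5% on the p arm (16.7 to 29.3) and 33.2% on the q arm (27.98 to 38.8), intervals that overlapped, and 41.1% of MKN28 peaks (35.0% elsewhere). MKN28 medians were 324 for score, 719 bp for width and 1.05 for width for score. With 50% of both peaks overlapping, shares were 43.1% of SNU216 peaks (48.3% elsewhere), 48.2% on its q arm and 17.8% of MKN28 peaks. With midpoints within 200 bp they were 43.6% (55.1% elsewhere), 48.5% and 18.005%. A required overlap of 50% can only lower overlap shares, a score limit can only raise median scores, and a shorter MKN28 list can only raise the SNU216 share and lower SNU216 overlap. The cause of the other moves was not tested. Widths of like score taken from the other chromosomes, an alternative chosen after seeing the data, gave 1.25 in SNU216 and 1.10 in MKN28. The unknown depth limits every statement on a peak found in 1 list.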

Other observations

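Short runs of neighbouring SNU216 peaks were looked for after the values were seen, as chains of at least 4 peaks with no gap over 20 kb between midpoints. There were 15 such chains with 72 peaks, of which 49 overlapped an MKN28 peak (68.1%). The share was 49.5% over the SNU216 peaks of chromosome 20 and 59.3% over the whole list, and chains on other chromosomes were not counted. The longest, in 20q13.31 at chr20:56262153-56321800, held 9 SNU216 peaks with scores from 51.3 to 1038, and 4 of them overlapped an MKN28 peak, of which the span held 4. A chain of 5 in 20q11.22 at chr20:33893374-33908751 had 1 peak that overlapped MKN28. Its peaks were 1.74 times as wide as like-score peaks, and it included 2 of the strongest SNU216 peaks with no MKN28 peak. A chain of 4 in 20p11.21 at chr20:22360111-22385437 had no overlap, with 1 MKN28 peak of score 72.7 in the same span. By contrast all 5 peaks overlapped in the chains of 20q11.21 at chr20:30266362-30308654, of 20q11.23 at chr20:36796202-36815615 and of 20q13.32 at chr20:56677380-56707379.

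In the part left out of the set, 28 of 33 SNU216 peaks overlapped an MKN28 peak (84.8%, 68.1 to 94.9), with 59.3% in the whole SNU216 list. Its SNU216 peaks also scored higher, with a median of 99.3 against 84.7 in the whole list, and overlap rises with score. A like-score rate was not computed for it. SNU216 peaks there were 1.33 times as wide as like-score peaks (1.13 to 1.55).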
